A study of Macaca mulatta with 16 samples.

Results

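The methylation of CpG sites in whole blood was compared between infant and old rhesus monkeys (Macaca mulatta) that were all fed ad libitum (AL). The sites were SmaI sites on chromosomes 1–20 of the rheMac2 build read 100 times or more in 3 or 4 of the 4 libraries of each age group. This rule kept 33845 of the 362007 autosomal sites listed in the files, and 20379 of them had at least 100 reads in all 8 libraries. The AL-infant group, called young in the sample labels, held monkeys 49 (female, 0.8 years), 52 (female, 0.8 years), 54 (male, 0.9 years) and 57 (male, 0.9 years). The AL-old group held monkeys 2 (female, 23.7 years), 7 (male, 29.8 years), 24 (male, 21.9 years) and 33 (male, 29.3 years). The series also holds AL-middle and CR-old (calorie-restricted) monkeys, which are used here only where they are named. Different animals were sampled at each age, with 1 blood sample and 1 library per animal.

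In mammals, a methyl group on the cytosine of a CpG is copied to the new strand after replication by DNMT1, and DNMT3A and DNMT3B can add it at new positions. Most CpG sites of the genome are methylated, while clusters of CpG sites at many gene starts are kept free of methylation. With age, blood DNA is known to lose methylation at part of the methylated sites and to gain it at part of the unmethylated ones, a process called methylation drift. Whole blood is a mixture of white cell types, each with its own methylation pattern. A different mixture of cells and a different methylation level within cells cannot be told apart in these samples.

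DREAM reads methylation at CCCGGG sites with a pair of enzymes. SmaI cuts the unmethylated sites, XmaI then cuts the methylated ones, and the bases left at the fragment ends tell which enzyme cut. The authors deposited methylated and unmethylated read counts and a percent methylation corrected with spiked-in standards, which multiplies the odds of methylation by 1 constant per library. Reads at SmaI sites numbered 15865457–18996770 per AL-infant library and 8075854–57201027 per AL-old library. AL-old 7 was the deepest library, with a median of 1074 reads at the sites used, and AL-old 24 the shallowest, with a median of 135 reads and 12392 sites under 100 reads. The constants were 0.398–0.460 in AL-infant and 0.250–0.424 in AL-old (exact two-sided permutation test, p = 0.0857). Before correction, the partly methylated standards read 56.9–60.5% in AL-infant and 59.0–70.8% in AL-old, and after it 38.1–38.8% in all 8 libraries. Because the correction was stronger in most old libraries, class means, counts of calls, runs and the largest chromosome differences are given with the correction and without it. All percentages below are corrected unless stated otherwise. In uncorrected percent, a site with 0 methylated reads of 100 allows a share of up to 3% (3 reads), which covers counting error only. The correction lowers this limit.

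The sites were divided by their mean level in AL-infant into 15639 sites under 5%, 10104 sites of 5–90% and 8102 sites over 90%. In AL-old monkeys, methylation was higher at the first class and lower at the other two. At sites under 5%, mean methylation was 0.405, 0.479, 0.452 and 0.394% in AL-infant 49, 52, 54 and 57. It was 1.71, 1.27, 1.28 and 1.98% in AL-old 2, 7, 24 and 33. All old monkeys thus lay above all infants, and the mean of 1.56 ± 0.350% (SD, n = 4) exceeded the infant mean of 0.432 ± 0.0399% (SD, n = 4) by 1.13 points. The two-sided permutation test over all exact divisions of the animals gave p = 0.0286, and with 4 animals on each side no smaller p is possible. Uncorrected, as methylated reads over all reads, the same sites had 0.797 ± 0.0309% in AL-infant and 3.94 ± 0.516% in AL-old (SD, n = 4 each), a rise of 3.15 points.

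At sites over 90%, the AL-infant means were 95.1, 95.8, 95.1 and 95.4% in monkeys 49, 52, 54 and 57. The AL-old means were 84.4% in monkey 2, 88.8% in monkey 7, 85.2% in monkey 24 and 80.8% in monkey 33. Old monkeys lay below infants without overlap, and AL-old 33 and AL-old 7, both over 29 years, were the lowest and the highest of the old group. The mean went from 95.3 ± 0.350% to 84.8 ± 3.27% (SD, n = 4 each), a change of -10.6 points (p = 0.0286, exact permutation test). In uncorrected percent the change was -4.30 points (p = 0.0286, same exact test).

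At sites of 5–90%, the means were 61.5, 63.7, 61.7 and 61.8% in AL-infant 49, 52, 54 and 57, and 49.3, 53.8, 47.4 and 44.5% in AL-old 2, 7, 24 and 33. This class moved by the most points, with a change of -13.5 points between means of 62.2 ± 1.02% and 48.7 ± 3.88% (SD, n = 4 each; p = 0.0286, exact permutation test). Without the correction the difference at the same sites was -5.40 points, and it did not pass the test (exact permutation test, p = 0.0571). Over all sites, the mean was 41.4 ± 0.450% (SD, n = 4) in AL-infant and 36.1 ± 2.04% (SD, n = 4) in AL-old (exact permutation test, p = 0.0286). Uncorrected, the overall means were 45.9 ± 0.323% (SD, n = 4) and 45.6 ± 3.18% (SD, n = 4), a difference of -0.276 points that lay within the spread of the animals (p = 1, exact permutation test).

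**Figure D1:**
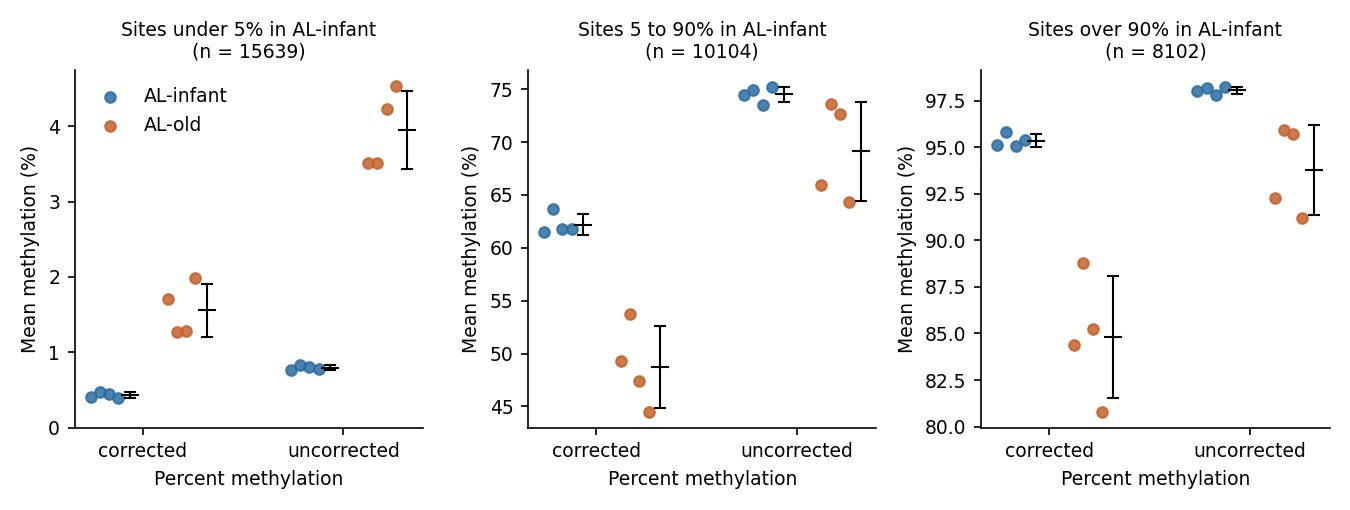
Mean methylation per animal (%, vertical axis, a different range in each panel) at sites under 5%, of 5–90% and over 90% in AL-infant, as corrected percent and as methylated reads over all reads (uncorrected). Points are the 4 AL-infant and 4 AL-old animals and bars show mean and SD. In corrected percent the groups do not overlap in any class, while uncorrected means of the middle class run from 73.5 to 75.2% in infants and from 64.3 to 73.6% in old animals.

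The classes were set on the same AL-infant values that entered the comparison, so they were also set on the AL-middle monkeys, which took no part in it. On these classes, methylation rose by 0.807 points at 10254 sites under 5% and fell by 6.78 points at 3883 sites over 90% (exact permutation test, p = 0.0286 for each). Both changes were smaller, in absolute terms, than with classes set on AL-infant.

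At each site, the methylated and unmethylated reads of the 8 libraries entered a quasi-binomial logistic model, with the correction constants as an offset and limma's moderation of the dispersion. After Benjamini-Hochberg adjustment and a limit of 0.05, 4378 sites were called as gaining methylation in AL-old (12.9% of those tested) and 6662 as losing it (19.7%). Before adjustment, 6146 gains and 9248 losses had p under 0.05. Of the sites under 5%, 4089 gained and 39 lost methylation. Of those of 5–90%, 289 gained and 3672 lost. Of those over 90%, 2951 lost and 0 gained in this model, where 4 had risen at an unadjusted p under 0.05. Gains over 90% numbered 5 without the offset (32 unadjusted), 3 with limma on log2 odds and 1 with limma on percent. A site near 0% can hardly lose and a site near 100% can hardly gain, which in part fixes these directions.

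The balance of gains and losses depended on the correction. Without the offset, 5295 sites gained (15.6%) and 3450 lost (10.2%), so gains made up 60.5% of calls instead of 39.7%. The median change on the log2 odds scale was -0.52 with the offset and -0.18 without it, a shift of 0.35, over the 28664 sites with methylated and unmethylated reads in both groups. Between the scales, 4334 gained and 3446 lost sites were shared, and no site was called in opposite directions. With a difference of at least 5 points also required, 998 sites gained and 6294 lost. Of the losses, 3446 of the 3450 sites called without the offset were also called with it. Without AL-infant 49, 52, 54 or 57, the gained sites numbered 2557, 2724, 2657 or 2625 and the lost sites 4242, 3808, 4009 or 4179.

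Counts were also made without the logistic model, but still in corrected percent. Every old monkey with data lay above every infant with data at 5656 sites (16.7%) and below them at 9674 sites (28.6%). At each site 3 or 4 animals of each group were compared. At the 20379 sites with data in all 8 animals, the numbers were 3466 (17.01%) and 6029 (29.58%). Over all 33845 sites, the mean of AL-old was the higher one at 39.9%. The share was 72.8% of sites under 5%, 17.6% of sites of 5–90% and 4.37% of sites over 90%. These counts and shares rest on the correction and were not made in uncorrected percent.

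The change followed the starting level in a graded way. The median change was 0.0750 points at 13933 sites under 1% in AL-infant, of which 24.7% gained, and 2.79 points at 1706 sites of 1–5%, of which 38.3% gained. It was 2.04 points at 5–10% and 0.790 points at 10–20%, and it turned negative at 20–35%, with -2.40 points. At 20–35%, 48 sites gained and 110 lost with the offset, but 89 gained and 51 lost without it. The level at which gains gave way to losses therefore depended on the correction. The largest median losses stood at 65–80% and 80–90%, with -19.9 points in each, where 46.6 and 48.1% of sites lost methylation. At 90–95%, 95–98% and 98–100% the median changes were -13.8, -7.22 and -2.20 points, and 43.9, 34.1 and 24.9% of sites lost methylation. The sites with the most methylation in infants were therefore not those that lost the most points.

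Both movements ran toward intermediate levels. The share of sites between 10 and 90% was 28.2, 26.3, 28.6 and 27.7% in AL-infant 49, 52, 54 and 57 and 42.8, 38.9, 45.3 and 44.4% in AL-old 2, 7, 24 and 33. The group means were 27.7 ± 0.977% and 42.8 ± 2.82% (SD, n = 4 each), and the rise of 15.2 points passed the test (p = 0.0286, exact permutation test). Sites over 90% made up 24.1 ± 1.12% (SD, n = 4) of an infant's sites and 11.3 ± 1.71% (SD, n = 4) of an old monkey's. Sites under 5% made up 46.5 ± 0.261% and 41.9 ± 1.50% (SD, n = 4 each; exact permutation test, p = 0.0286 for both shares).

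**Figure D2:**
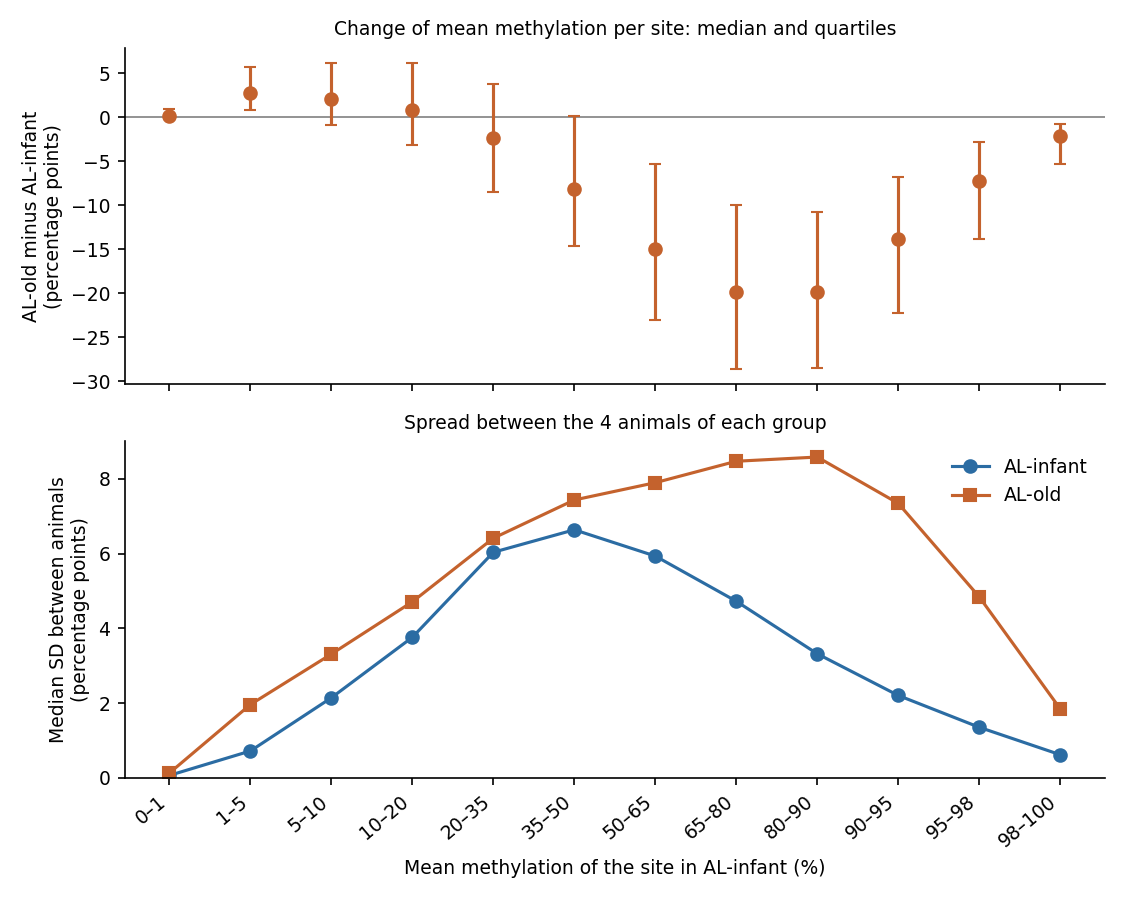
Change and spread by the mean methylation of a site in AL-infant (horizontal axis, %, 12 ranges of unequal width). The upper panel gives the median and quartiles over sites of AL-old minus AL-infant in percentage points, and the lower panel the median over sites of the SD between the 4 animals of each group. The median change is positive up to 20%, is lowest from 65 to 90%, and the SD of AL-old stands above that of AL-infant in every range, with the smallest ratio at 20–35%.

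Old monkeys also differed more from each other than infants did. At each site, an animal's value was set against the mean of the other animals of its group, and the absolute deviations were averaged over sites. The mean deviation was 1.98, 2.12, 1.97 and 2.02 points in AL-infant 49, 52, 54 and 57. In AL-old 2, 7, 24 and 33 it was 3.48, 5.25, 3.73 and 5.18 points. With means of 2.02 ± 0.0667 and 4.41 ± 0.936 points (SD, n = 4 each), it was 2.18 times as large in old monkeys (p = 0.0286, exact permutation test). Each deviation uses the other animals of the group, so 1 divergent animal raises the values of all. The deviations within a group are thus not independent, and this p and those of deviations below are only a guide. The old monkeys with the largest deviations, 7 and 33, were those with the smallest and the largest loss at sites over 90%. After each animal was centred on its group within ranges of level, which takes out such overall differences, the deviations were 1.97 ± 0.0198 and 3.99 ± 0.574 points (SD, n = 4 each; exact permutation test, p = 0.0286). With all libraries thinned to 100 reads per site, the rise was 2.30 points instead of 2.39 (p = 0.0286, same exact test). The ages of the old animals spanned more years than those of the infants, and the part of age, depth and cell mixture in the spread was not tested beyond these values.

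In all classes the spread was larger in old monkeys. The deviation rose 4.07 times at sites under 5% (0.201 to 0.819 points), 1.63 times at 5–90% (5.09 to 8.30 points) and 3.62 times over 90% (1.74 to 6.31 points; exact permutation test, p = 0.0286 for each). The classes were set on AL-infant values, which limits the spread of infants near 0 and 100%. With classes set on AL-middle, chosen after seeing the data, the ratios were 3.88, 1.90 and 3.43 (exact permutation test, p = 0.0286 for each). Whether the ratios differ from each other was not tested. By site, the SD between animals was higher in AL-old at 78.4% of sites, with medians of 0.829 points in AL-infant and 2.45 points in AL-old. In infants the median SD was highest, 6.63 points, at 35–50% methylation and fell to 3.32 points at 80–90% and 2.20 points at 90–95%. In old monkeys it was 7.43, 8.58 and 7.34 points in the same ranges, so the peak of the spread lay at a higher starting level. At 20–35% the medians were close, 6.03 and 6.41 points, and the SD was higher in AL-old at 54.5% of sites.

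Large losses were found at more sites than large gains, and part of them were shared by all old monkeys. Over the 20379 sites with data in all 8 animals, a value more than 10 points below all 4 infants was found in at least 1 old monkey at 7029 sites. Of these, 2007 sites (28.6%) were that low in all 4 old monkeys and 1734 (24.7%) in a single one. A value more than 10 points above all infants was found at 860 sites, of which 20 (2.33%) were shared by all 4 and 590 (68.6%) were seen in a single old monkey. By animal, the low values numbered 4784, 2744, 4965 and 5683 sites in AL-old 2, 7, 24 and 33, and the high values 431, 180, 87 and 540 sites. For comparison, an infant lay more than 10 points below the other 3 infants at 81–134 sites and above them at 83–185 sites. At sites over 90% in infants, 559 of 3040 sites with a low value were shared by all 4 old monkeys, and at 5–90% it was 1448 of 3989. No test was made of these shares, and a limit in points favours the losses, which are larger.

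Neighbouring sites became less alike in old monkeys. For 17475 pairs of sites next to each other within 500 bp, the mean absolute difference in methylation was 7.71, 7.61, 7.78 and 7.87 points in AL-infant 49, 52, 54 and 57. It was 9.76, 9.36, 11.0 and 10.4 points in AL-old 2, 7, 24 and 33. The means were 7.74 ± 0.110 and 10.1 ± 0.700 points (SD, n = 4 each; p = 0.0286, exact permutation test). Pairs of sites that were both over 90% in infants showed the larger change, from 2.94 ± 0.165 to 9.17 ± 1.74 points (SD, n = 4 each; exact permutation test, p = 0.0286). Pairs that were both under 5% rose from 0.320 ± 0.0305 to 1.17 ± 0.390 points (SD, n = 4 each; exact permutation test, p = 0.0286). Pairs of sites that were both of 5–90% differed by less than their spread, with 18.5 ± 0.176 points in infants and 18.9 ± 0.516 points in old monkeys (SD, n = 4 each; exact permutation test, p = 0.286). Choosing pairs by infant levels also limits their difference in infants. With classes set on AL-middle, chosen after seeing the data, pairs over 90% had 2.42 ± 0.181 points in infants and 6.14 ± 1.38 points in old monkeys, and pairs under 5% had 0.217 ± 0.0219 and 0.829 ± 0.282 points (SD, n = 4 each; exact permutation test, p = 0.0286 for both). Pairs of 5–90% then also passed the test, with 16.3 ± 0.245 and 17.8 ± 0.320 points (SD, n = 4 each; p = 0.0286, exact permutation test). Sites this close can be the ends of one restriction fragment, so their counts share fragments.

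The difference between the ages depended on the distance. It was 3.09 points at 1–100 bp (3213 pairs), 2.34 points from there to 200 bp, 2.46 points up to 500 bp and 1.41 points up to 1000 bp (exact permutation test, p = 0.0286 for each). Between 1000 and 2000 bp, neighbours differed by 23.1 points in infants and 23.2 points in old monkeys (exact permutation test, p = 0.714). At longer distances the sign was the opposite. Between 5000 and 20000 bp neighbours differed by 39.7 points in infants and 36.2 points in old monkeys (p = 0.0286, exact permutation test).

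The changes themselves were alike in neighbours. Across the 3213 pairs within 100 bp, Pearson's r between the changes of the pair was 0.747, and it was 0.607 between 500 and 1000 bp, 0.290 between 2000 and 5000 bp and 0.0815 beyond 100000 bp. Among pairs in which neither site was under 5% in infants, the values were 0.602, 0.409, 0.261 and 0.122 at the same distances. These correlations are across pairs of sites from the same 8 libraries and are given as a description. Within 100 bp, 64.3% of the 1032 neighbours of gained sites had also gained and 62.4% of the 1080 neighbours of lost sites had also lost methylation, against 12.9 and 19.7% of all sites. However, 85.2% of these pairs were of one class of infant level. Within classes, 26.1% of sites under 5% gained, and 36.3% of sites of 5–90% and 36.4% of sites over 90% lost methylation. The part of a shared starting level in the agreement of neighbours was not tested. Beyond 100000 bp, these shares were 17.3 and 21.5%. Within 500 bp, a neighbour called in the opposite direction made up at most 0.572% in any distance range.

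Deviations of single animals were less alike between neighbours in the old group. For pairs within 100 bp with no site under 5% in infants and data in all animals (1055 pairs), an animal's deviations from its group mean, after centring within ranges of level, correlated between the neighbours with r = 0.498–0.561 in infants and r = 0.255–0.391 in old monkeys. Between 200 and 500 bp the ranges were 0.421–0.499 and 0.263–0.321. At these distances the old animals lay below the infants, and between 5000 and 20000 bp the medians were 0.0331 in infants and 0.126 in old monkeys. These values are across sites and were not tested.

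**Figure D3:**
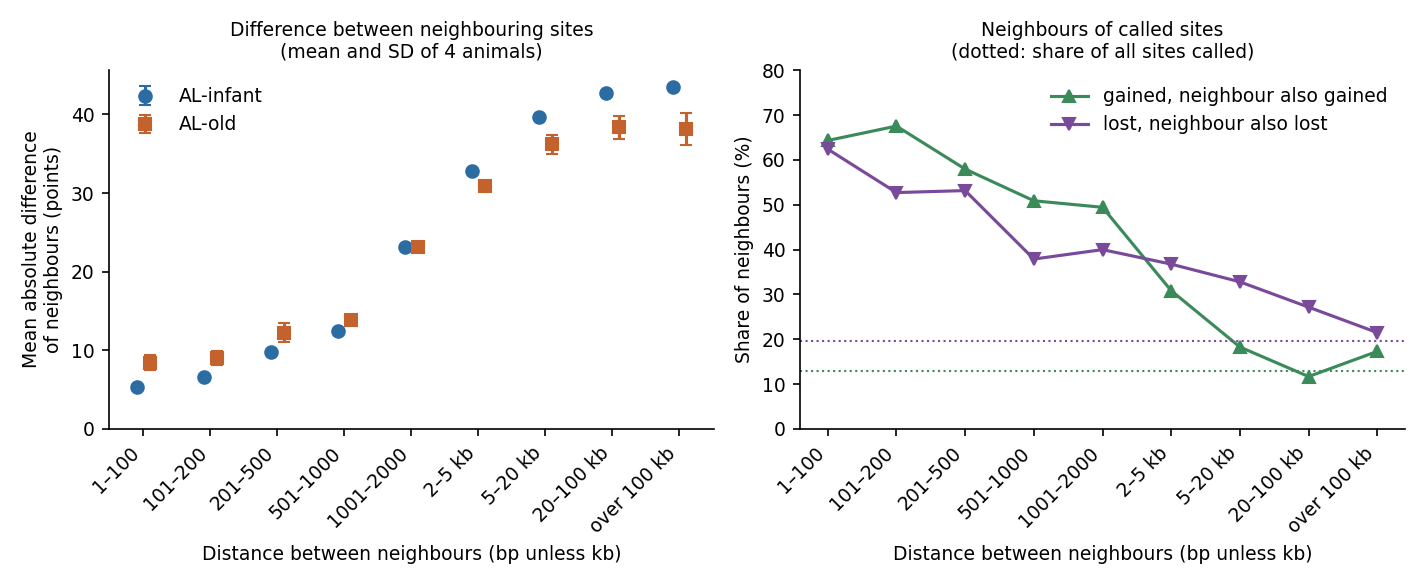
Agreement of neighbouring sites by their distance (horizontal axis). On the left, the mean absolute difference in methylation between neighbours (percentage points; mean and SD of the 4 animals of a group), which is larger in AL-old up to 1000 bp and smaller beyond 2000 bp. On the right, the share of the neighbours of gained and of lost sites that were called in the same direction (%), which falls from 64.3 and 62.4% within 100 bp toward the dotted lines, the shares of all sites called (12.9 and 19.7%).

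Both gained and lost sites lay in runs. A run was defined as consecutive sites all called in the same direction with gaps of at most 1000 bp. Gained sites formed 1217 runs of 2 or more sites, which held 2978 sites (68.0% of the gained), and 133 runs had 4 or more sites. Lost sites formed 1498 runs with 3213 sites (48.2% of the lost), of which 35 runs had 4 or more sites. Sites that are low in infants lie closer together on the genome, with 14243 of 15639 next to another such site within 500 bp, and the difference between the directions was not tested.

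The longest gained runs held 7 sites. There were 6 of them, of which the 3 with the largest mean change are given. On chromosome 3, positions 57557797–57559333, the mean over the run was 1.03, 1.54, 1.59 and 0.967% in AL-infant 49, 52, 54 and 57 and 10.8, 7.56, 8.17 and 11.0% in AL-old 2, 7, 24 and 33. Each of its sites was higher in old monkeys, by 1.84 to 16.3 points. The 2 values left out for under 100 reads were of AL-old 24 and included the site that rose by 16.3 points. The mean of this animal thus covers fewer sites than those of the others. On chromosome 6, positions 2636618–2637908, the infants had 0.663, 0.839, 0.597 and 0.556% and the old monkeys 8.50, 6.93, 8.59 and 8.99%. Within this run the change was not even: it was 13.1 points at the first site, 1.11 points at the sixth and 13.2 points at the seventh. On chromosome 10, positions 54687261–54688892, the infants had 0.257, 0.451, 0.410 and 0.264%. AL-old 2, 7, 24 and 33 had 3.78, 2.31, 2.07 and 4.51%. The 6 values left out for under 100 reads were all of AL-old 24. Its 2.07% was thus the value of SmaI_rheMac2_198270 alone and is not comparable with the run means of the other animals. The rise per site in this run was 0.867 to 9.30 points, and AL-old 24 had no value at the site that rose by 9.30 points. All 7 sites of each of these runs were also gained without the offset. In uncorrected percent the runs on chromosomes 3, 6 and 10 rose by 20.0, 18.8 and 7.57 points, against 8.12, 7.59 and 2.82 points corrected. Their values chose them, so no further test is given.

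The longest lost run also held 7 sites and lay on chromosome 19 at positions 3903300–3904773. Its mean was 63.5, 72.8, 63.8 and 70.0% in AL-infant 49, 52, 54 and 57 and 31.1, 37.2, 31.1 and 35.4% in AL-old 2, 7, 24 and 33. The groups were far apart, and the sites fell by 20.3 to 41.6 points. Their infant levels ranged widely, from 24.5% at the sixth site to 89.7% at the first. The 5 values left out for under 100 reads were all of AL-infant 49 and AL-old 24. The means of these animals thus cover fewer sites than those of the others. The next longest were 4 runs of 5 sites, of which 2 are given. On chromosome 17, positions 90578322–90579028, 5 sites fell from 91.3 ± 0.965% to 66.5 ± 7.53% (SD, n = 4 each). On chromosome 9, positions 132851758–132853057, 5 sites fell from 84.9 ± 1.18% to 61.8 ± 5.62% (SD, n = 4 each). There, 1 value of AL-old 24 had under 100 reads and was left out. Without the offset all 7 sites of the chromosome 19 run were called, but only 2 and 3 of the 5 sites of the runs on chromosomes 17 and 9. The uncorrected changes of the runs on chromosomes 19, 17 and 9 were -24.7, -11.7 and -11.0 points.

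**Figure D4:**
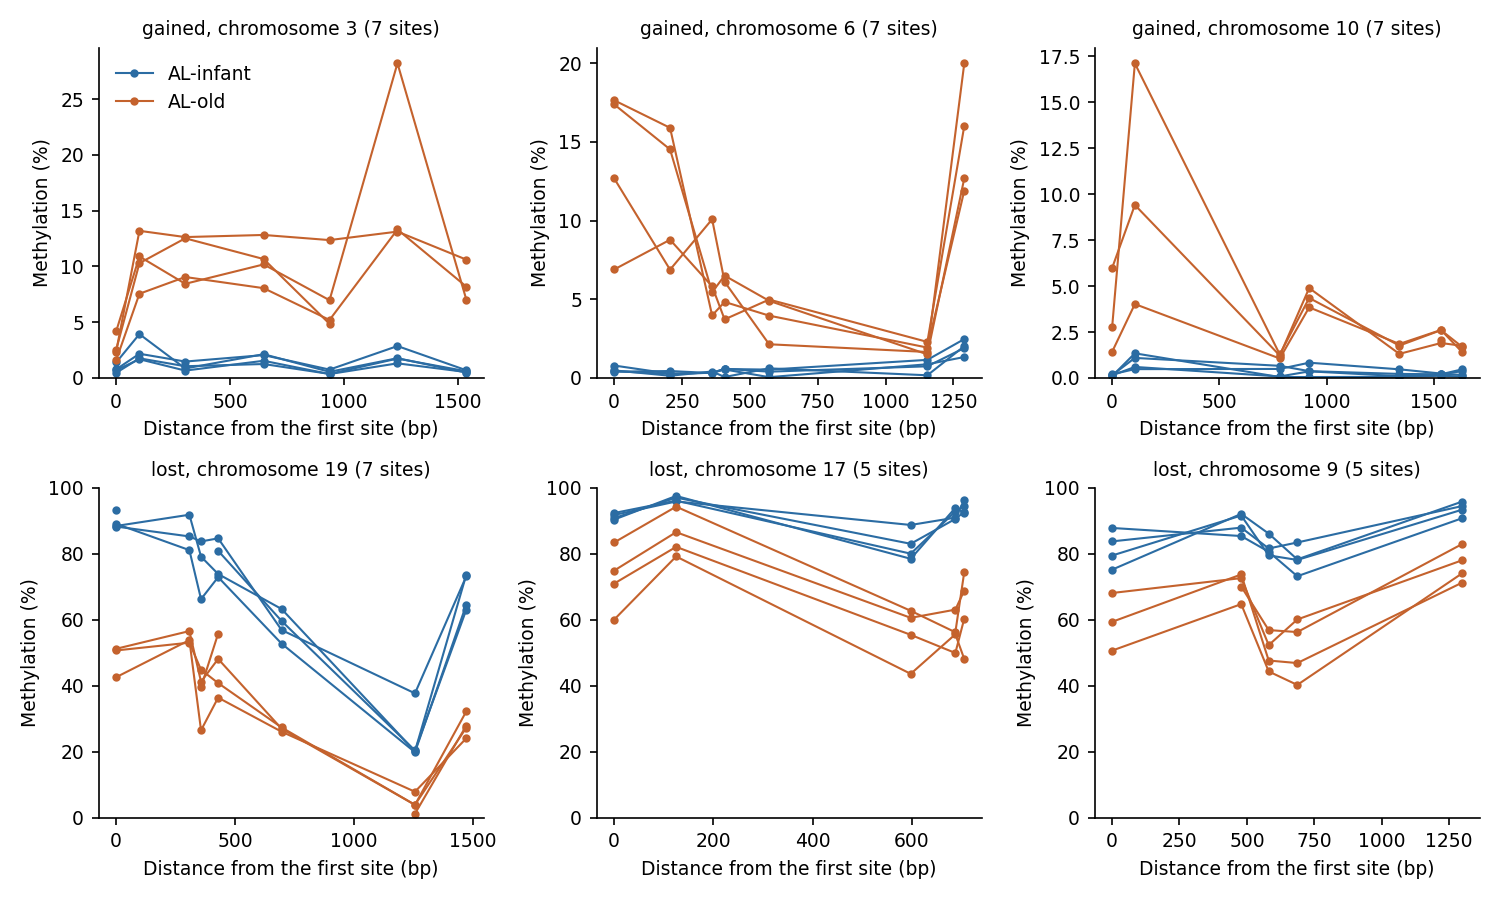
Methylation (%, vertical axis) of each animal along the 3 longest runs of gained sites (upper row, axes of different range) and of lost sites (lower row), against the distance from the first site in bp. Lines join the values of one animal, and values under 100 reads are left out. Old animals lie above the infants at nearly every site of the gained runs and below them in the lost runs, and the lost run on chromosome 19 passes through a site at 24.5% in infants and 4.26% in old animals.

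Single sites were named when called, covered by at least 100 reads in all 8 libraries and free of overlap between the groups; the values chose them and are given as a description, with adjusted p from the logistic model. The largest gain was at SmaI_rheMac2_186066 (chromosome 9, position 124143164). It read 10.7, 25.1, 22.2 and 26.4% in AL-infant 49, 52, 54 and 57 and 59.7, 60.4, 50.9 and 68.9% in AL-old 2, 7, 24 and 33, a change of 38.9 points (adjusted p = 0.00231, 331–2866 reads). The second and the fifth were neighbours on chromosome 10, at positions 81917226 and 81917292. SmaI_rheMac2_204055 rose from 31.0 ± 7.66% to 68.5 ± 13.6% and SmaI_rheMac2_204056 from 14.9 ± 2.85% to 45.9 ± 13.4% (SD, n = 4 each; adjusted p = 0.0163 and 0.00569 in the logistic model), and the first had an adjusted p of 0.0511 without AL-infant 52. In both, AL-old 2 had the highest value, 86.6 and 63.7%. SmaI_rheMac2_63158 (chromosome 3, position 49613217) started at 37.9 ± 11.1% (SD, n = 4) in infants and gained 35.0 points, and its AL-middle mean, 38.0 ± 12.8% (SD, n = 5), was close to that of the infants. SmaI_rheMac2_56940 (chromosome 3, position 11686123) started at 12.6 ± 8.70% (SD, n = 4) and gained 32.9 points (adjusted p = 0.0273 in the logistic model). Without AL-infant 49, 54 or 57 its adjusted p was 0.0742, 0.0765 or 0.0684.

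Among sites under 5% in infants, SmaI_rheMac2_173644 on chromosome 9 at position 22450579 gained the most. It read 2.04, 3.42, 0.860 and 2.53% in AL-infant 49, 52, 54 and 57 and 38.6, 24.5, 22.7 and 37.8% in AL-old 2, 7, 24 and 33 (adjusted p = 0.00170 in the logistic model). The AL-middle mean, 16.6 ± 2.68% (SD, n = 5), lay between the groups. The other named sites of this class rose by 22.6 to 25.3 points. They were SmaI_rheMac2_290586 on chromosome 16, SmaI_rheMac2_113432 on chromosome 6, SmaI_rheMac2_319116 on chromosome 18 and SmaI_rheMac2_28409 on chromosome 1. AL-old 33 had the highest value at SmaI_rheMac2_113432, 39.1%, whereas at SmaI_rheMac2_319116 it had the lowest, 17.3%. For SmaI_rheMac2_28409 the adjusted p of the logistic model was 0.0160, and it was 0.0584 without AL-infant 49 and 0.0513 without AL-infant 57. For SmaI_rheMac2_290586 it was 0.0170, and 0.0526 and 0.0517 without the same infants.

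The largest loss was at SmaI_rheMac2_55669 on chromosome 3 at position 4246902, an isolated site with no other SmaI site within 500 bp. It read 80.6, 75.2, 74.5 and 79.2% in AL-infant 49, 52, 54 and 57 and 11.2, 34.3, 13.9 and 21.5% in AL-old 2, 7, 24 and 33, a change of -57.1 points (adjusted p = 0.0105). SmaI_rheMac2_325889 on chromosome 18 at position 66749649 fell from 89.4 ± 3.21% to 37.8 ± 19.3% (SD, n = 4 each; adjusted p = 0.0101 in the logistic model). Its spread in old monkeys was wide, from 11.3% in AL-old 7 to 57.6% in AL-old 24. At SmaI_rheMac2_306783 on chromosome 16 at position 72908572, AL-old 7 read 50.7% and the other old monkeys 25.5–27.1%, against 80.7–87.6% in infants. Its adjusted p in the logistic model was 0.0185, 0.0586 without the offset and 0.0513, 0.0550, 0.0558 and 0.0542 without AL-infant 49, 52, 54 and 57. SmaI_rheMac2_119482 on chromosome 6 and SmaI_rheMac2_155127 on chromosome 8 fell by 49.4 points each.

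Among sites over 90% in infants, SmaI_rheMac2_199354 on chromosome 10 at position 62527978 lost the most. It read 88.6, 92.1, 93.6 and 88.4% in AL-infant 49, 52, 54 and 57 and 43.7, 53.3, 35.9 and 33.5% in AL-old 2, 7, 24 and 33 (adjusted p = 0.00246 in the logistic model). SmaI_rheMac2_162864 on chromosome 8 was more even among the old monkeys, with 38.0–47.7% against 86.4–94.4% in infants (adjusted p = 0.000847). The other named sites of this class, SmaI_rheMac2_275285, SmaI_rheMac2_74480 and SmaI_rheMac2_142802, changed by -46.4, -44.2 and -43.9 points. Of the 10 sites named for losses, 9 had a single other SmaI site within 500 bp and 1 had none. At most 1 such neighbour was also found at 67.6% of all sites of 5–90% and 70.7% of all sites over 90%.

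Chromosome 19 lost the least methylation. At its 808 sites over 90%, the means were 95.4, 96.1, 95.5 and 95.5% in AL-infant 49, 52, 54 and 57 and 89.8, 91.2, 88.8 and 87.9% in AL-old 2, 7, 24 and 33. The change of -6.20 points compares with -11.0 points over the other autosomes, a difference of 4.84 points (exact permutation test, p = 0.0286; Benjamini-Hochberg adjusted over 20 chromosomes, 0.0635). This difference was 2.58 points with classes set on AL-middle and 3.19 points in uncorrected percent (p = 0.0286 for both, exact permutation test). For the latter, the classes were also set on uncorrected percent, so the sites were not the same. With 20 chromosomes and 4 against 4 animals, the adjusted value passed 0.05 in this class for none, while 9 chromosomes passed unadjusted, 7 with a larger and 2 with a smaller loss than the others. Without any 1 infant, 2 chromosomes passed unadjusted, and chromosome 19 had p = 0.0571 (exact permutation test). The other chromosome with a smaller loss was chromosome 20, which fell by 8.92 points; with classes set on AL-middle it did not pass the test (p = 0.371, exact permutation test).

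The largest falls over 90% were on chromosomes 9 and 12. Chromosome 9 (395 sites) went from 94.9 ± 0.400% to 81.1 ± 5.34% (SD, n = 4 each), by 13.8 points, with 79.6, 87.0, 83.3 and 74.5% in AL-old 2, 7, 24 and 33. Chromosome 12 (166 sites) fell by 13.3 points. Against the other autosomes, the change of chromosome 9 differed by -3.42 points, by -2.81 points with classes set on AL-middle and by -1.66 points in uncorrected percent. For chromosome 12 these differences were -2.83, -3.16 and -1.69 points. Classes for the uncorrected differences were set on uncorrected percent. The infant means of the 20 chromosomes in this class differed little, from 94.9 to 95.7%. At sites of 5–90% chromosome 19 also had the smallest loss, with a change of -8.13 points against -14.0 points over the other autosomes (exact permutation test, p = 0.0286; adjusted, 0.0816), and chromosome 6 the largest, -16.0 points.

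The smaller loss of chromosome 19 was seen at each infant level and each density of SmaI sites. At infant levels of 90–95%, 95–98% and 98–100%, its sites changed by -9.10, -5.64 and -2.47 points, against -15.7, -9.59 and -4.12 points on the other autosomes. With 0, 1, 2 and 3 or more other SmaI sites within 500 bp, the changes were -6.83, -6.05, -6.38 and -6.29 points, against -10.8, -11.6, -10.2 and -10.0 points. Along the chromosome, the change ran from -5.38 points at 60–70 Mb and -5.59 points at 0–10 Mb to -9.67 points at 30–40 Mb, where 30 sites were used.

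Gains at sites under 5% were distributed otherwise. They were largest on chromosome 18, with a rise of 1.98 points over 317 sites, and chromosome 17, with a rise of 1.82 points over 322 sites, against 1.11 points over the other autosomes in each case. The old monkeys 2, 7, 24 and 33 had 2.57, 1.93, 2.12 and 3.05% on chromosome 18 and the infants 0.380–0.476%. The excess of chromosome 18 over the others was 0.869 points, 0.621 points with classes set on AL-middle and 2.05 points uncorrected, and that of chromosome 17 was 0.706, 0.444 and 1.67 points. Classes for the uncorrected values were set on uncorrected percent. Chromosome 2 had the smallest rise, 0.789 points. In this class 15 of 20 chromosomes differed from the others at an adjusted p of 0.0381 (exact permutation test), 7 with a larger and 8 with a smaller rise. All 15 had the smallest possible p, 0.0286 (exact permutation test), so the adjusted value followed from how many chromosomes reached it. Each chromosome was set against the others, so these comparisons are not independent. Differences as small as -0.120 points (chromosome 10) were among the 15. Without AL-infant 52 or 57 the unadjusted count of 15 was 8 or 9. Chromosome 19, with 0.947 points, was on the smaller side in this class too.

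**Figure D5:**
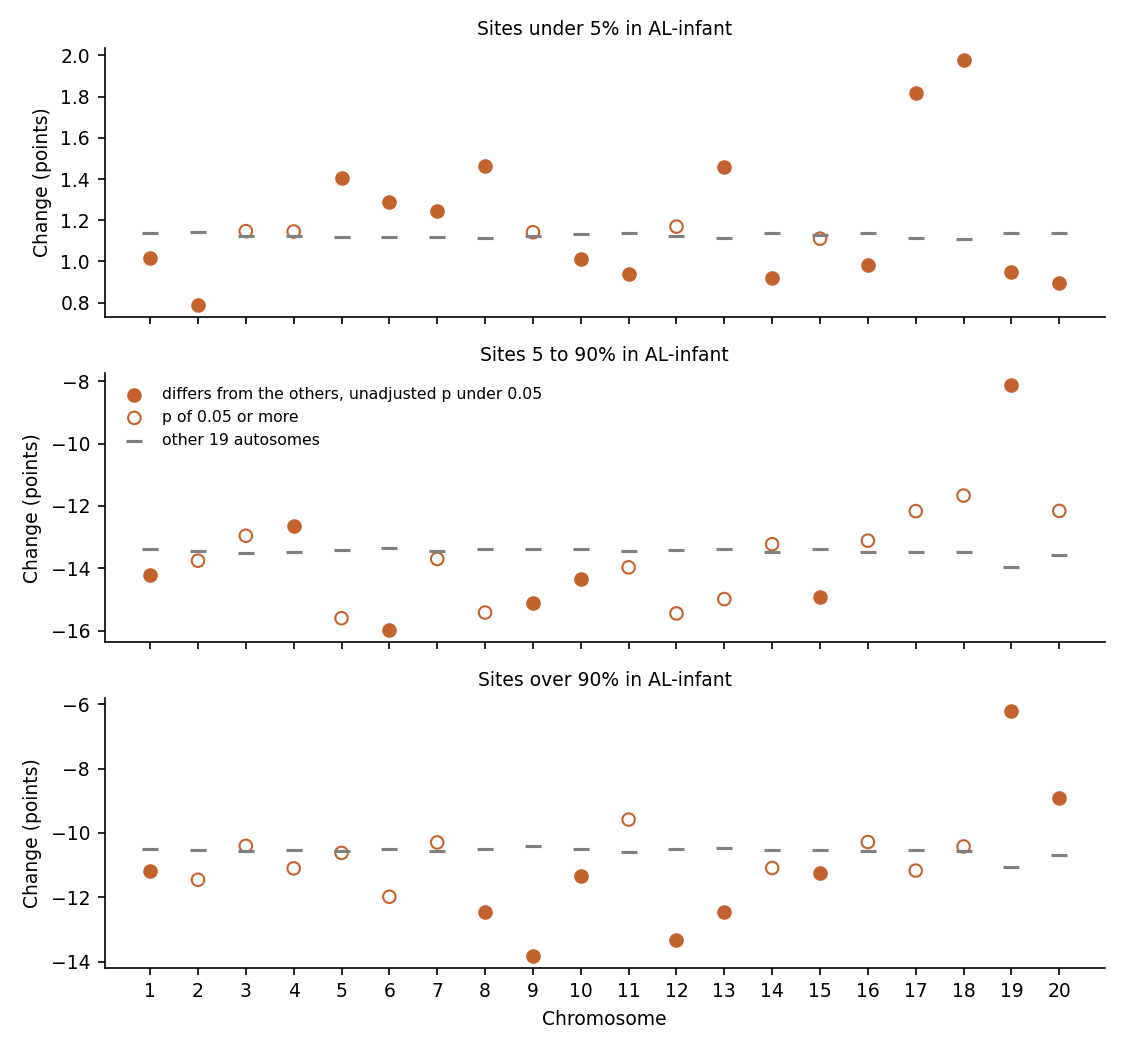
Change of mean methylation from AL-infant to AL-old (percentage points, vertical axis, a different range in each panel) on chromosomes 1–20, for sites under 5%, of 5–90% and over 90% in AL-infant. Filled points differ from the other 19 autosomes, whose change is drawn as a bar, at an unadjusted exact permutation p of 0.0286. Chromosome 19 stands highest in the lower panels, at -8.13 and -6.20 points, and chromosomes 17 and 18 in the upper one, at 1.82 and 1.98 points.

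The density of SmaI sites went with the change at intermediate sites. At sites of 5–90% the change was -15.0 points with no other SmaI site within 500 bp, -15.1 points with 1, -11.5 points with 2, -7.07 points with 3–4 and -3.29 points with 5 or more (exact permutation test, p = 0.0286 for each). Dense sites (3 or more) and sparse sites (at most 1) differed in change by 8.49 points (exact permutation test, p = 0.0286). The infant level also fell with density, from 65.4% with none to 47.7% with 5 or more, and its part in the difference was not tested. Over 90% the same difference was 1.24 points (exact permutation test, p = 0.0286). Under 5% it was -0.0359 points and did not pass the test (exact permutation test, p = 0.371), and sites with no neighbour rose by 1.07 points and those with 5 or more by 1.21 points.

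The position beside another class and near a chromosome end also went with the change at sites over 90%. The 36 sites over 90% that lay within 500 bp of a site under 5% changed by -6.58 points, against -9.66 points at 4140 sites next to another site over 90%, a difference of 3.09 points (exact permutation test, p = 0.0286). Sites over 90% within 2 Mb of a chromosome end changed by -9.45 points and those further inside by -10.9 points (difference 1.41 points, exact permutation test, p = 0.0286). Under 5%, 36 sites beside a site over 90% rose by 0.792 points and 14243 beside another of this class by 1.10 points. This difference did not pass the test (exact permutation test, p = 0.0857). Near chromosome ends, sites under 5% rose by 1.26 points and further inside by 1.11 points (exact permutation test, p = 0.0286). Their infant level was also higher near the ends, 0.560% against 0.419%, and its part in the difference was not tested.

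The called sites were also read in the other monkeys, as a description, since AL-old values chose these sites. At the 2951 sites over 90% that lost methylation, the mean was 94.8 ± 0.396% in AL-infant, 89.7 ± 1.77% in AL-middle, 78.6 ± 3.39% in AL-old and 89.8 ± 1.35% in CR-old (SD, n = 4, 5, 4 and 3). At the 4089 sites under 5% that gained, it was 0.596 ± 0.0718%, 2.42 ± 0.385%, 3.52 ± 0.673% and 2.92 ± 0.503% in the same order (SD, same n). At the 3672 sites of 5–90% that lost, the means in this order were 73.4 ± 1.20%, 65.2 ± 3.46%, 48.5 ± 4.01% and 66.1 ± 3.16% (SD, same n). At the 289 sites of 5–90% that gained, the means were 22.4 ± 0.557%, 32.8 ± 2.04%, 36.3 ± 3.61% and 38.2 ± 2.40% (SD, same n). The CR-old mean was the highest there, but its animals (35.5–39.8%) overlapped those of AL-old (31.1–39.1%). Both groups also overlapped at the gained sites under 5%, with 2.34–3.26% in CR-old and 2.78–4.25% in AL-old. The libraries of the groups differed in a partly methylated standard, listed as Luc306, which read 41.4–56.0% before correction in AL-infant, 50.1–68.2% in AL-old, 27.5–32.1% in AL-middle and 27.6–42.6% in CR-old. The correction constants were 0.469–0.728 in AL-middle and 0.494–0.772 in CR-old, above those of AL-infant and AL-old. The labels name no batch. AL-old and CR-old monkeys also differed in age, and the part of age and of the libraries in the group means was not tested.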

How the data were processed

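Whole blood DNA was digested with SmaI and XmaI and sequenced in 1 library per monkey. The authors mapped reads to rheMac2 (the submitters' processing notes name Bowtie2 and SAMtools, without versions, and mm10, which does not match the site names) and the deposited counts per SmaI site (methylated, unmethylated, total) are not normalized. The authors also deposited 2 percent values: a raw percent with 0.5 reads added to each count, and a percent corrected by spiked-in standards of 0, 25, 50 and 100%. Uncorrected values here are methylated over all reads. Depth was 8075854–57201027 reads per library. PCR reads carry no molecular identifiers, so floors cover counting error only.

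Sites needed 100 reads in 3 libraries of each group, and values under 100 reads were left out. The members and lists were chosen with earlier results of these data known. Counts were tested in a quasi-binomial logistic model (likelihood ratio against a dispersion moderated by limma 3.58.1 and kept at 1 or more), with the logarithm of the correction constants as offset and Benjamini-Hochberg adjustment over 33845 sites. For measures with one value per animal, the difference of means was tested by an exact permutation test (two-sided). Its p is the share of all divisions of these animals that give a difference at least as large. Differences between animals and between their libraries are not separated by it. Deviations from the other animals are not independent within a group, which this test does not take into account. Named sites were the 5 largest rises and falls, the 5 largest rises under 5% and the 5 largest falls over 90% among called sites with 100 reads in all libraries and no overlap; named runs were the 3 longest in each direction. No libraries of a group agreed within counting noise. Alternatives were coverage minimums of 20 and 200 reads, uncorrected values, other models, sex as covariate, males only, classes set by AL-middle, thinned reads, other distances and each animal left out; sites with data in all animals, centred deviations and AL-middle classes for spread and neighbours were added after seeing the data. Python 3.11.15 with numpy 2.4.6, pandas 2.3.3 and matplotlib 3.10.9 and R 4.3.3 were used, and the tests were tested on simulated data. Genes and sequence of rheMac2 were not used here.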

Additional observations from a re-analysis of the deposited data

Results flagged for a closer look

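Of 116 groups of 4 animals examined (class means, spread, neighbours, positions, named sites and runs), 4 held an animal whose distance from the nearest other exceeded Dixon's 95% critical value (0.829 of the range); chance alone flags about 1 group in 20. In AL-infant at sites of 5–90%, AL-infant 52 had 63.7% against 61.5–61.8% in the others. In AL-infant pairs of neighbours that were both over 90%, the same animal had a mean difference of 2.69 points against 3.00–3.05 points. In AL-old, monkey 7 stood apart at SmaI_rheMac2_306783, with 50.7% against 25.5–27.1% (0.939 of the range), and at SmaI_rheMac2_275285, with 55.9% against 38.2–41.2% (0.831 of the range).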

How the results depend on the processing

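No paired analysis was possible because infants and old monkeys were different animals and share no replicate number. The rise under 5%, the fall over 90%, the share between 10 and 90%, the spread and the difference of neighbours within 500 bp kept their direction and stayed past the test under all alternatives run that gave a test, apart from the longer distance below. With uncorrected percent, also used to set the classes, the change was -1.77 points at 5–90% and -0.276 points over all sites, neither past the exact permutation test (p = 0.429 and 1). With 200 reads the change over all sites was -4.09 points (exact permutation test, p = 0.143). Neighbours 500–2000 bp apart differed by 0.887 points more in AL-old (exact permutation test, p = 0.0857). As the median over sites of the SD, the spread rose by 1.62 points. Gained sites numbered 6134 with limma on log2 odds and 998 (against 6294 lost) with a difference of at least 5 points, lost sites 3450 without offset. In males only (2 against 3 animals) the logistic model called 0 sites in either direction; at an unadjusted p under 0.05 it had 3320 gained and 4558 lost, and limma on corrected percent called 1 and 10. With each animal left out, gained sites ranged from 2557 to 3994, lost sites from 3808 to 6990, and chromosomes past the unadjusted test from 2 to 13 over 90% and from 8 to 15 under 5%. These counts are of different sets of sites. Without AL-old 2, 7 or 33, only 21037, 21166 or 21082 sites were tested, against 31902–33308 without any other animal. The 6990 losses were among the 21166 sites tested without AL-old 7, a larger share than in the main model. The cause of these differences was not tested. Depth limits single sites most in AL-old 24.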
